A study of Homo sapiens with 2 samples.

Results

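The collagen and laminin genes are the 56 protein-coding genes of RefSeq (GRCh38) whose symbols name a collagen chain (44 genes) or a laminin alpha, beta or gamma chain (12 genes), out of 19866 protein-coding genes. The rule reads the gene symbol and no measured value, although it was set with earlier results of these data known. The mark studied was lactylation of histone H3 at lysine 18 (H3K18la), mapped by chromatin immunoprecipitation and sequencing (ChIP-seq) in the H1299 cell line, which comes from a non-small cell carcinoma of the human lung. The labels name no treatment, and the series holds 1 library made with the H3K18la antibody and 1 input library. Only the peak list of the antibody library, with 28695 broad peaks, was analysed here. The series' design text names IgG where the sample labels name input, so that the control behind the peaks is not settled by the sources used here. There were no replicates, the sequencing depth is unknown, and no test between groups was possible. Where no peak is listed at a gene, the mark itself may still be present below the threshold of the list.

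Collagens are triple-helical chains that build the fibres and sheets of the extracellular matrix. Laminins are heterotrimers of an alpha, a beta and a gamma chain, and together with the type IV collagen network they form the basement membrane on which epithelial cells sit. In the lung, basement membrane underlies the airway and alveolar epithelium, while fibrillar collagens are made mainly by fibroblasts. H3K18la is a modification of histone lysine that derives from lactate and is known as a mark of active promoters and enhancers.

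Laminin genes had an H3K18la peak at an end of the gene in 9 of 12 cases (75%, exact 95% binomial interval 42.8 to 94.5), and collagen genes in 15 of 44 (34.1%, 20.5 to 49.9). An end here means the window of 1000 bp either side of the lower or the upper coordinate of the gene, and a peak counted when it overlapped that window by 1 bp or more. Over all protein-coding genes the share was 59.1%, so that the interval of the collagens lay below it and that of the laminins contained it. The whole group of 56 had 24 genes with a peak at an end (42.9%, 29.7 to 56.8). All intervals cover counting error only. They treat genes as independent, although COL4A3 and COL4A4 share a peak, as do COL4A5 and COL4A6. The laminin count rests partly on weak peaks. Of the 9, 4 had a -log10 q under 5, LAMA2, LAMA3 and LAMA4 among them, and without peaks below that level 5 of 12 laminins and 12 of 44 collagens counted, against 52.4% of all protein-coding genes.

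**Figure D1:**
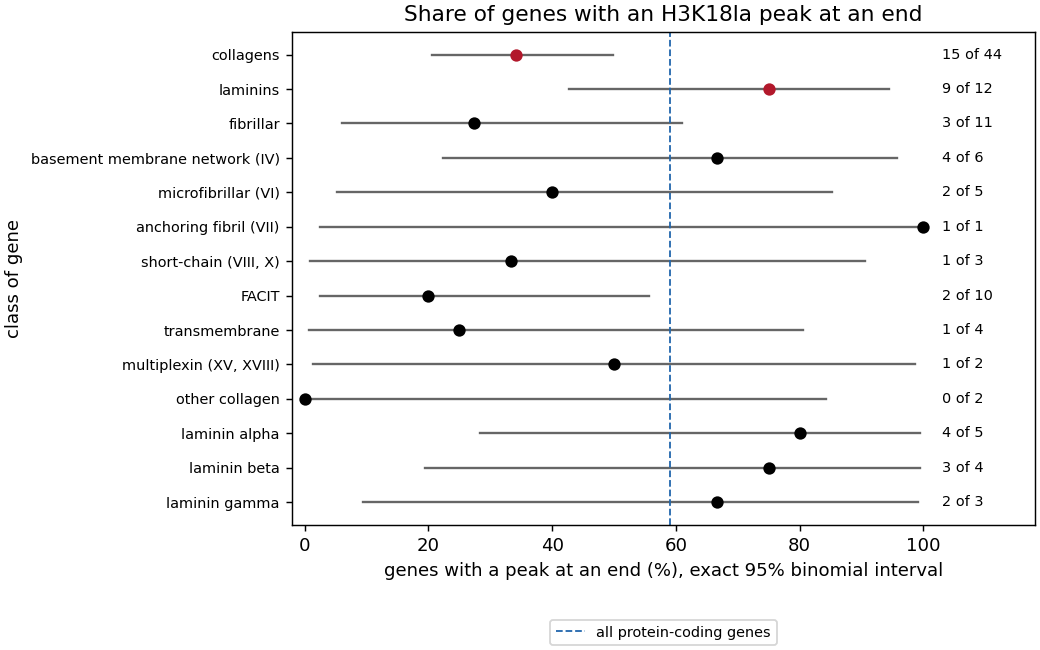
Share of genes with a peak at an end (x axis, percent) for collagens, laminins and their classes (y axis); points are shares, bars the exact 95% binomial intervals, the dashed line the 59.1% of all protein-coding genes, and the numbers at the right the counts. The collagens (15 of 44) sit left of the line and the laminins (9 of 12) right of it, and the intervals of the small classes span most of the axis.

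Enrichment at the marked members was moderate. Fold enrichment is the ratio to background that the authors deposited for each peak, and where a gene had several peaks at its ends the highest was taken. The 24 marked members had a median fold of 5.12 (quartiles 3.63 and 6.62), compared with 5.66 (4.42 and 7.19) over the 11744 protein-coding genes with such a peak. The median was 4.89 for collagens and 5.45 for laminins. Of the 24 genes, 9 lay above the median of all genes. The range ran from 3.26 at the shared start of COL4A3 and COL4A4 to 11.2 at LAMA5.

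**Figure D2:**
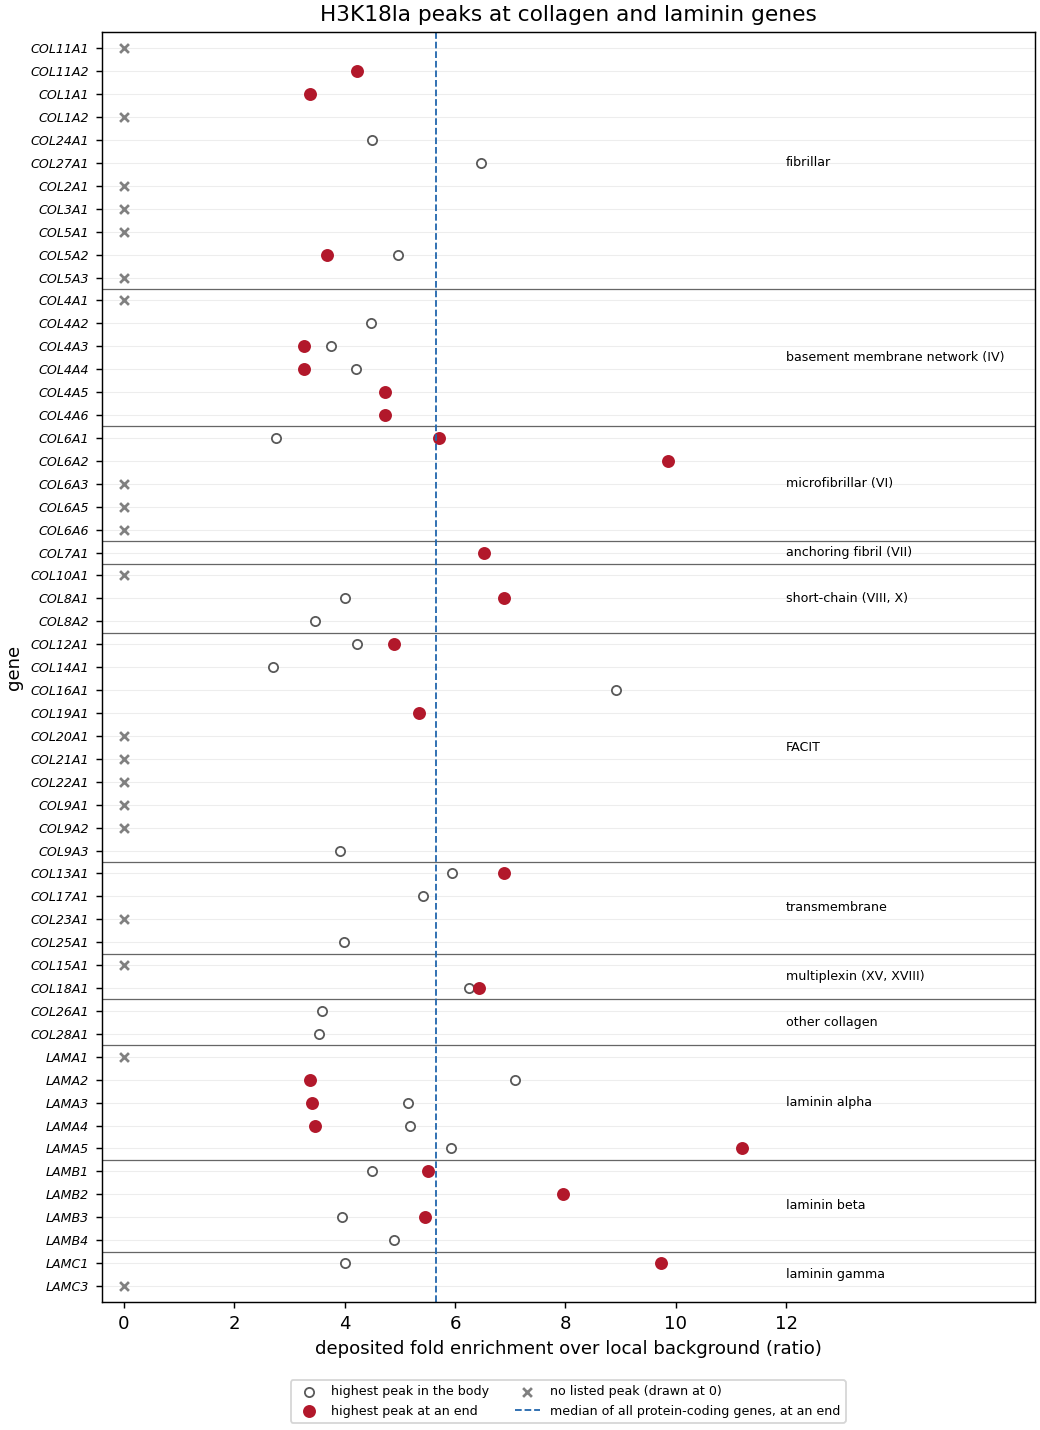
Highest deposited fold (x axis, ratio) of 55 of the 56 genes (y axis, by class) at an end (filled) and in the body (open); crosses at 0 are genes with no listed peak, and the dashed line is the median at an end over all protein-coding genes (5.66). LAMA5, COL6A2 and LAMC1 stand highest, from 9.73 to 11.2, and 20 genes have no listed peak.

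Among the laminin alpha chains, which carry most of the sites bound by cell receptors, LAMA5 stood well above the rest. LAMA5 (NCBI gene 3911) encodes the alpha-5 chain, widespread in the basement membranes of mature epithelia, and lies on chromosome 20 from 62309065 to 62367312 on the minus strand. Its peak at the start (62365086 to 62371452) was 6367 bp wide, had a fold of 11.2 and a -log10 q of 38.6, and extended 4140 bp outside the gene. LAMA5 also held 3 peaks in its body, of 3.82-fold to 5.92-fold, the widest of 5268 bp. LAMA3, whose product is part of the laminin that anchors epithelia, had 3.40-fold at its outermost start (chromosome 18, 23689045 to 23689982, -log10 q 4.38). An inner start listed for LAMA3, 183567 bp from the outermost, had no peak within 1000 bp. LAMA2, the alpha chain of muscle and nerve basement membranes, had 3.38-fold at its start (-log10 q 4.57), and LAMA4, a chain of vessel basement membranes, had 3.47-fold (-log10 q 2.96). LAMA1, the chain of embryonic basement membranes, had no listed peak. LAMA2, LAMA3 and LAMA4 thus lay close together and below the lower quartile of all genes with a peak at an end (4.42).

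Of the beta chains, LAMB1, LAMB2 and LAMB3 had a peak at their start and LAMB4 had none at either end. LAMB2 (NCBI gene 3913, chromosome 3) encodes the beta-2 chain of kidney and neuromuscular basement membranes and had a peak of 7.95-fold over 2138 bp at its start, with a -log10 q of 19.4. A further LAMB2 peak of 6.06-fold lay just outside its other end, at the end of USP19. LAMB1, the common beta chain, had 5.51-fold over 2109 bp at its start and 3 peaks in its body, of 3.52-fold to 4.49-fold. LAMB3, a beta chain of epithelial basement membranes, had the widest peak of all members, 13299 bp (chromosome 1, 209647961 to 209661259). That peak had a fold of 5.45, and 8834 bp of it lay outside the gene, so that it was no longer counted when the midpoint of the peak had to lie in the window. LAMB4 lies 8500 bp from LAMB1 and had only 1 peak in its body, of 4.90-fold.

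The gamma chains differed likewise. LAMC1 (NCBI gene 3915), the gamma chain shared by most laminins, had 9.73-fold over 2537 bp at its start, with a -log10 q of 32.1 (chromosome 1, 183021720 to 183024256). LAMC3 had no peak at an end or in its body, and the nearest peak lay 2061 bp outside the gene, at the end of AIF1L (3.70-fold). All 3 chains of the ubiquitous laminin made of the LAMA5, LAMB1 and LAMC1 products therefore had a peak at their start. This was not particular to that trimer. Of 9 laminin genes with a listed start, 8 had a peak there (88.9%, 51.8 to 99.7). That interval contains the 59.5% of all protein-coding genes with a listed start. LAMA1 and LAMC3, which had no peak at an end or in the body, lacked a listed start and were not in the count. The start peaks of LAMA2, LAMA3 and LAMA4 had a -log10 q under 5.

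The stretches around the starts of LAMA5 (chr20:62367263-62367562, minus strand), LAMC1 (chr1:183023170-183023469, plus strand) and COL6A2 (chr21:46097862-46098161, plus strand), the 3 members with the highest fold at an end, are shown beside that of COL6A3 (chr2:237414115-237414414, minus strand), which has no listed peak although its product assembles with that of COL6A2. They are RefSeq sequences of GRCh38.p14 from 250 bases before to 50 after the start, 5′ to 3′ along the gene, with CpG dinucleotides in capitals.
LAMA5: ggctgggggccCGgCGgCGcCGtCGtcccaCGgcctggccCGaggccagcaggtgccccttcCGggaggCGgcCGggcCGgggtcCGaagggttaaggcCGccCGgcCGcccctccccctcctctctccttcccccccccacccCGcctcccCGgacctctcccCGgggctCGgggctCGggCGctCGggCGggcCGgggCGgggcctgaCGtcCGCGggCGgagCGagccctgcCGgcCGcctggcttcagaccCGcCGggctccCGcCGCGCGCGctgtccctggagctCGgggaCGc
LAMC1: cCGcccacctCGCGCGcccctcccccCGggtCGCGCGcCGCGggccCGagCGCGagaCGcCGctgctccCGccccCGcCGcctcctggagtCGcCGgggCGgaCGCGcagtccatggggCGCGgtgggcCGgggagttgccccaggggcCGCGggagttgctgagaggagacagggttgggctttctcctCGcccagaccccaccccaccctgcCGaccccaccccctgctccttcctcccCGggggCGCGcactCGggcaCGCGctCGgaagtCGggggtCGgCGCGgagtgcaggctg
COL6A2: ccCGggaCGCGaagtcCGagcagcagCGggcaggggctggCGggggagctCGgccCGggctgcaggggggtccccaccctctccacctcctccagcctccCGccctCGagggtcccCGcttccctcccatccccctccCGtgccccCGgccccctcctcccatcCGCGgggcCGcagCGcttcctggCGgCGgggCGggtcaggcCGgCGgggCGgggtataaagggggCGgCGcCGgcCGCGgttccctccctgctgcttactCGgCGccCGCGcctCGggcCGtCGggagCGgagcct
COL6A3: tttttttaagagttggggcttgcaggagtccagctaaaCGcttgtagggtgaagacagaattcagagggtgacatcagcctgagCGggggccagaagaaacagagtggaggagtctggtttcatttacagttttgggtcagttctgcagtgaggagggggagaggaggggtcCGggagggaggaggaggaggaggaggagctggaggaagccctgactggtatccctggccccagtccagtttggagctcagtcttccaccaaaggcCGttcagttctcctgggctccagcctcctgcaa
The LAMA5 stretch holds 41 CpG dinucleotides, that of LAMC1 41, that of COL6A2 36 and that of COL6A3 only 4. COL6A3 is a chosen example. Other members without a peak at the start, COL4A1 and COL4A2 among them, had starts rich in CpG.

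Type IV collagens form the network of the basement membrane, and their 6 genes lie in 3 pairs that are transcribed away from each other from a shared start region. A peak lay within 1000 bp of the shared start in 2 of the 3 pairs, and none lay near that of COL4A1 and COL4A2, the pair found in nearly every basement membrane. The starts of COL4A1 and COL4A2 on chromosome 13 are separated by 126 bp. The nearest peak to them was 140504 bp away, inside COL4A2, with 4.47-fold over 1072 bp (110447788 to 110448859). COL4A1 held no peak at all over its 158195 bp. The COL4A3 and COL4A4 pair, whose chains belong to the basement membranes of kidney, lung and inner ear, has starts 135 bp apart on chromosome 2. A peak of 901 bp covered both starts (227163980 to 227164880), with a fold of 3.26 and a -log10 q of 3.37, so that it was no longer counted at a -log10 q of at least 5. Each of these genes had 1 further peak in its body, of 4.20-fold in COL4A4 and 3.76-fold in COL4A3. The COL4A5 and COL4A6 starts on chromosome X are 379 bp apart. Their peak of 536 bp (108439885 to 108440420, 4.74-fold, -log10 q 6.16) did not cover the space between the starts. It lay 47 to 582 bp inside COL4A5, and 427 to 962 bp outside COL4A6.

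The shared start regions are shown in the orientation of the plus-strand gene of each pair, COL4A2 (chr13:110307034-110307333), COL4A3 (chr2:227164374-227164673) and COL4A5 (chrX:108439588-108439887), with the bases between the starts of the pair in capitals, to set the unmarked pair beside the marked ones.
COL4A2: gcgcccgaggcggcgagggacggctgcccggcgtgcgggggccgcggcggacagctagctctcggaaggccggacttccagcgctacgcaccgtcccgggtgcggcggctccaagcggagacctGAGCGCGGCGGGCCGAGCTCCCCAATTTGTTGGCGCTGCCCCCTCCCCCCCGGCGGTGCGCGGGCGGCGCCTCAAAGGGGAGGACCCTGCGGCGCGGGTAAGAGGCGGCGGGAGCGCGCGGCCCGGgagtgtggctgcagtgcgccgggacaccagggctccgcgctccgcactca
COL4A3: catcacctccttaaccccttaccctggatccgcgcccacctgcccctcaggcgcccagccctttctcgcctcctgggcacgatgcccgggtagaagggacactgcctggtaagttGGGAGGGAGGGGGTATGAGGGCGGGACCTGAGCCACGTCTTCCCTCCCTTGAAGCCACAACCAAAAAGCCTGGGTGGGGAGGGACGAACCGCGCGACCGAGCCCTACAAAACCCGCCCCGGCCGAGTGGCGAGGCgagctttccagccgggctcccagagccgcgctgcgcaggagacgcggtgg
COL4A5: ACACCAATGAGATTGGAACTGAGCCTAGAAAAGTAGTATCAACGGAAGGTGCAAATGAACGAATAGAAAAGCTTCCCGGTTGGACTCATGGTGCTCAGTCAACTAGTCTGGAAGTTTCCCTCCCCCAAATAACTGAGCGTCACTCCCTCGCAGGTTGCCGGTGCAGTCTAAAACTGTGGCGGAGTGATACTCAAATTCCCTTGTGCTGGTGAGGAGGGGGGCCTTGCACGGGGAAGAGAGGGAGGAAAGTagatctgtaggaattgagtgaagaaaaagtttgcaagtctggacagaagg
The space between the starts is shown whole for the first 2 pairs, and for COL4A5 the 250 bases of it that the stretch holds. The ratio of observed to expected CpG over the 300 bases was 1.00 at COL4A2, 0.70 at COL4A3 and 0.46 at COL4A5, so that the pair without a peak had the start richest in CpG.

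**Figure D3:**
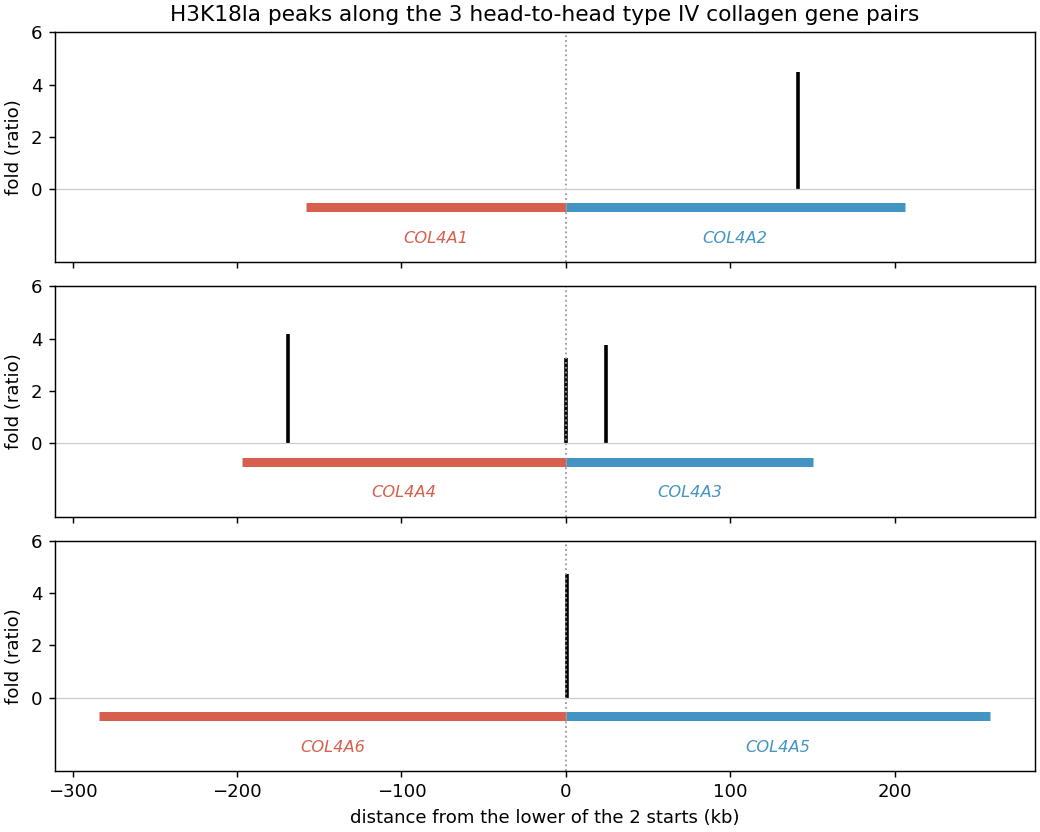
Peaks (black bars, height is the deposited fold as a ratio) along the type IV gene pairs, by distance in kb from the lower of the 2 starts; the minus-strand gene is drawn at the left in red and the plus-strand gene at the right in blue. The COL4A3 and COL4A4 pair (3.26-fold) and the COL4A5 and COL4A6 pair (4.74-fold) have a peak at the shared start, and the COL4A1 and COL4A2 pair has none within 140504 bp.

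Type VI collagen forms beaded microfilaments around cells, and its main trimer joins the COL6A1, COL6A2 and COL6A3 products. COL6A2 (NCBI gene 1292) had the highest fold of any collagen at an end, 9.85 over 1768 bp, with a -log10 q of 42.4 (chromosome 21, 46097330 to 46099097). COL6A1, whose upper end lies 93063 bp below COL6A2, had 5.71-fold over 1217 bp at its lower end and a weak peak of 2.65-fold (-log10 q 1.76) just outside its upper end. COL6A3, COL6A5 and COL6A6 had no listed peak. The nearest to COL6A3 was 7641 bp away (4.82-fold). COL7A1 encodes the anchoring fibril that ties the epithelial basement membrane to the tissue below. Its peak of 6.53-fold over 3470 bp lay at its 3′ end and also at the ends of UCN2 and PFKFB4, and the nearest peak to its start was 13757 bp away.

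Fibrillar collagens, the bulk of connective tissue, had a peak at an end in 3 of 11 genes (27.3%, 6.02 to 61), an interval that contains the 59.1% of all genes, and none of these peaks was above 4.22-fold. COL1A1 (NCBI gene 1277, chromosome 17), which encodes the alpha-1 chain of type I collagen, had 3.38-fold over 1614 bp within its upper end (50199752 to 50201365, -log10 q 5.81). COL1A2, the partner chain, had none, and the nearest peak was 17877 bp away (2.91-fold). COL3A1 had none either, while COL5A2, 19151 bp from it, had 3.68-fold at its upper end in a peak also at WDR75, and 5 peaks in its body of 2.94-fold to 4.96-fold. COL11A2, a cartilage collagen on chromosome 6, had 4.15-fold at its start, in a peak also at RXRB, and 4.22-fold outside its other end. COL5A1 and COL11A1, which limit the width of fibrils, had no listed peak, the nearest being 206150 bp and 417322 bp away. COL2A1, the main cartilage collagen, and COL5A3 had none. COL24A1 had 1 peak, in its body, of 4.49-fold over 2247 bp. COL27A1 had no peak in its end windows but 5 in its body, the first of 6.47-fold beginning 1465 bp inside its start.

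FACIT collagens, which sit on the surface of fibrils, had a peak at an end in 2 of 10 genes (20%, 2.52 to 55.6). That interval lay below the 59.1% of all genes, but this was 1 of several small classes looked at. With a window of 3000 bp, COL16A1 and COL9A3 also counted, against 62.4% of all genes, and no interval was computed there. COL12A1 had 4.89-fold over 1865 bp at its start and COL19A1 had 5.34-fold over 747 bp. COL9A1, which lies 2592 bp from COL19A1, had none, and neither did COL9A2, COL20A1, COL21A1 and COL22A1 at an end or in the body. COL16A1 had none at an end, but its body held the strongest inner peak of the whole group, 8.91-fold over 3366 bp (chromosome 1, 31688502 to 31691867, -log10 q 29.1). COL9A3 and COL14A1 had only peaks in the body, of up to 3.91-fold and 2.70-fold.

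Among the remaining collagens, COL8A1, a short-chain collagen of vessel walls, and COL13A1, a transmembrane collagen of cell adhesion sites, both had 6.89-fold at an end, over 1727 bp and 1577 bp. COL18A1, the basement membrane collagen from which endostatin is cut, had 6.44-fold over 2064 bp at its start and 6.25-fold in its body. Its relative COL15A1 had no listed peak, although the nearest one, 33414 bp away at the end of TGFBR1, reached 11.6-fold. COL17A1, the hemidesmosome collagen of epithelia, had only body peaks, of 3.22-fold and 5.42-fold. COL23A1 and COL10A1 had no listed peak, and COL8A2, COL25A1, COL26A1 and COL28A1 had 1 or 2 weak peaks each in the body, none above 3.98-fold.

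Per 100 kb, peaks inside the genes were fewer in collagens and more numerous in laminins than over all protein-coding genes. That held for pooled rates without intervals, and not for the share of long collagen genes with such a peak. A body peak, meaning one that overlapped the gene but neither end window, was found in 28 of 56 members (50%, 36.3 to 63.7), against 24.8% of all protein-coding genes. The members are long, with a median of 125 kb against 24.5 kb. Among genes of at least 50 kb, 24 of 42 members had a body peak (57.1%) and 50.4% of all such genes did. Collagens of that length had 16 of 32 (50%, 31.9 to 68.1) and laminins 8 of 10 (80%, 44.4 to 97.5). The intervals of both families contain the share of all such genes. Per 100 kb of gene, members held 0.650 body peaks, collagens 0.546, laminins 1.05 and all protein-coding genes 0.808. These rates were not compared among long genes alone. Counting any peak at an end or in the body, 36 of 56 members were marked (64.3%, 50.4 to 76.6), against 66.7% of all genes. The restriction to long genes left the end counts at 17 of 42 members (40.5%), 10 of 32 collagens and 7 of 10 laminins, against 64% of all such genes.

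The 57 body peaks had a median fold of 3.98, near the 3.91 of body peaks in all genes. Of the 57, 12 reached 5-fold, a count without a share over all genes to set beside it here. COL27A1, COL5A2 and LAMA3 had the most, 5 each, followed by COL13A1 with 4. The widest was in LAMA2, 5723 bp at 7.08-fold (chromosome 6, 129488946 to 129494668, -log10 q 19.5). It lay 605808 bp or more from the start, where LAMA2 had only 3.38-fold. LAMA4 likewise had more in its body, 5.18-fold over 3656 bp, than at its start. LAMA3 had 5.15-fold some 5510 bp inside its outer start, and 3 peaks of 3.56-fold to 3.74-fold between 132929 and 140064 bp from it. In COL13A1 all 4 body peaks, of 3.71-fold to 5.94-fold, lay within its first 63287 bp. Of the body peaks of members with a listed start, 10 of 45 (22.2%) had their midpoint within 10 kb of it, against 18.1% over all genes.

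**Figure D4:**
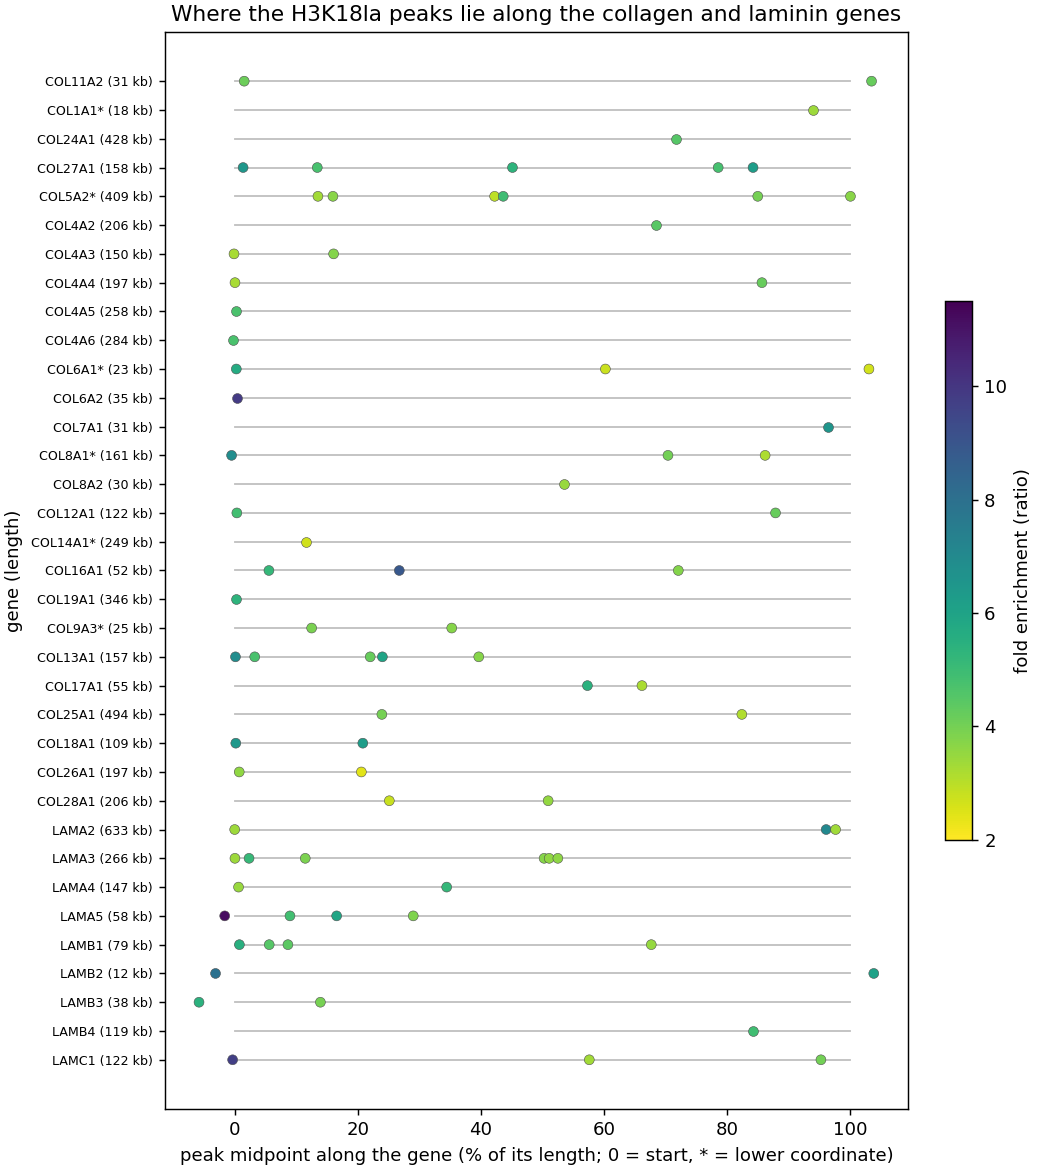
Midpoints of the peaks of 35 of the 36 genes with any (rows, length in kb in brackets), as a percent of the gene's length from its start (x axis), coloured by deposited fold (ratio); genes with an asterisk have no listed start and run from the lower coordinate. Points gather at 0, LAMA2 has its strongest peak near the far end, and COL7A1 is marked at its far end only.

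For 41 of the 56 members the RefSeq promoter table gave a strand and a start, which allowed the ends to be told apart. Among those with no entry were COL3A1, COL5A2, COL8A1, COL6A5, COL1A2, COL14A1, COL22A1, LAMC3, COL2A1, COL1A1, LAMA1, COL9A3, COL20A1 and COL6A1. Peaks lay at the start in 18 of 41 genes (43.9%, 28.5 to 60.3), against 59.5% of 15842 protein-coding genes, and at the other end in 3 (7.32%), against 7.62%. The 3 were COL7A1, COL11A2 and LAMB2. Among laminins 8 of 9 had a peak at the start (88.9%, 51.8 to 99.7), all but LAMB4, and among collagens 10 of 32 (31.2%, 16.1 to 50). The outermost start of each gene was used. Of 13 inner starts listed for 10 members and over 1000 bp from the outermost, 2 had a peak within 1000 bp, at LAMB3 in the same wide peak and at COL27A1 (6.47-fold). These inner starts lie only 1051 bp (LAMB3) and 1439 bp (COL27A1) from the outermost. The share of inner starts with a peak over all genes is not given here.

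Across all genes, H3K18la at a start went with CpG content, and across the members as a whole the shares on either side of the split were close, although most laminins lay below it. CpG content is given as the ratio of CpG dinucleotides observed to those expected from the C and G content of the 300 bases at the start, and the split at 0.6 was chosen after the values were seen. Of all protein-coding genes, 79.1% had a peak at the start where the ratio was at least 0.6 and 22.3% where it was lower. Members had 10 of 22 (45.5%, 24.4 to 67.8) and 8 of 19 (42.1%, 20.3 to 66.5). Collagens had 7 of 19 at or above the split (36.8%, 16.3 to 61.6) and 3 of 13 below it (23.1%, 5.04 to 53.8). Laminins had 3 of 3 at or above it (100%, 29.2 to 100) and 5 of 6 below it (83.3%, 35.9 to 99.6), so that within each family the share was higher above the split, with wide intervals. The 12 members at or above 0.6 without a peak at the start were all collagens: COL4A1, COL4A2, COL5A1, COL6A6, COL7A1, COL8A2, COL9A2, COL15A1, COL23A1, COL24A1, COL25A1 and COL26A1. Below 0.2, none of 7 members had a peak at the start, an exact upper limit of 41%, beside 9.99% of all genes. The median ratio was 0.65 in members with a peak at the start and 0.60 in those without, compared with 0.85 and 0.36 over all genes. The G and C content had medians of 62.5% and 66.7% in the same members, and 66% and 56% over all genes.

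**Figure D5:**
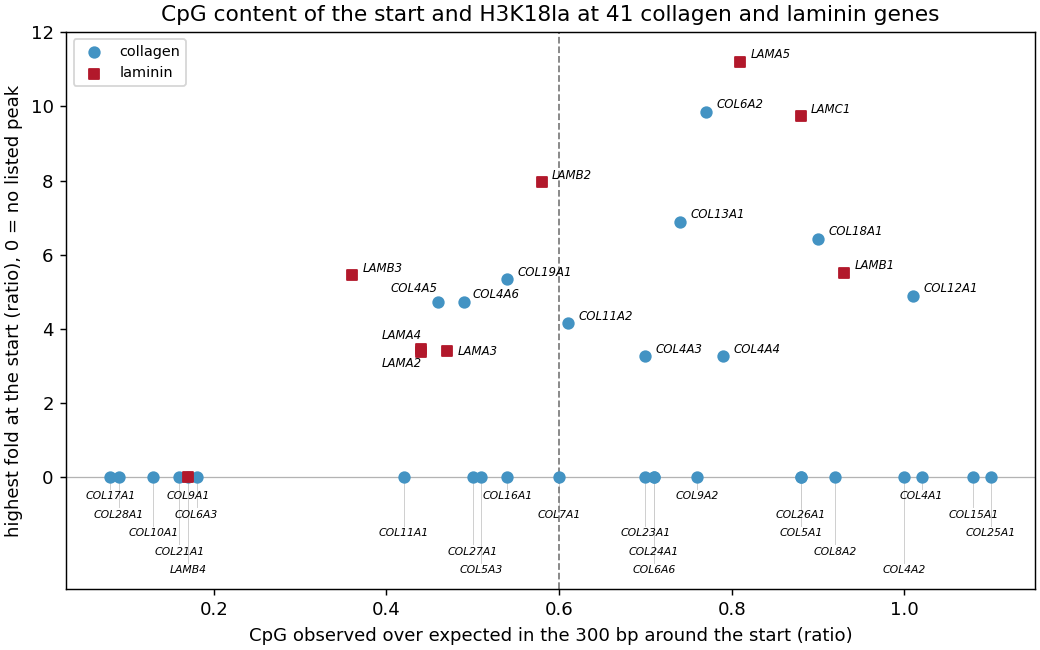
Highest deposited fold at the start (y axis, ratio, with 0 for no listed peak) against the observed over expected CpG ratio of the 300 bases at the start (x axis) for the 41 members with a listed start; squares are laminins, circles collagens, and the dashed line is at 0.6. Right of the line, 10 genes have a peak and 12 collagens lie at 0; left of it, 5 laminins and 3 collagens have one.

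Short motifs were searched at the starts. On either strand of the 300 bases, and without regard to overlap with each other, the GC box GGGCGG was present at 23 of 41 members (56.1%) and 58.3% of all protein-coding genes, TATAAA at 5 (12.2%) and 9.75%, and CCAAT at 10 (24.4%) and 36.4%. GGGCGG was present at 10 of the 18 members with a peak at the start (55.6%) and 13 of the 23 without (56.5%), while over all genes it was present at 72.8% of those with such a peak and 37% of those without. CCAAT was present at 2 of the 18 members with a peak (11.1%), COL4A5 and COL4A6, whose stretches overlap. It was present at 8 of the 23 without (34.8%), among them COL4A1 and COL4A2, whose stretches overlap as well. Over all genes the shares were 36.9% and 35.6%. The AP-1 motif TGANTCA was found at LAMA3 only, with 2 matches, and at 5.70% of all genes. A match is a description of the letters and not a site of binding.

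The 32 members without a peak at an end differed widely in how far the nearest peak lay. The median distance from the nearer end was 21.3 kb. For 5 of them a peak lay within 3000 bp, namely COL26A1 (1269 bp, 3.59-fold), COL27A1 (1465 bp), COL16A1 (1527 bp, 5.19-fold), COL9A3 (1991 bp, 3.91-fold) and LAMC3, so that these fell just outside the window. With a window of 3000 bp, 29 of 56 members counted, and the share of all protein-coding genes rose from 59.1% to 62.4%. No distances over all genes without a peak are given here, so whether those of the members are unusual was not tested. Among the members counted, the nearest peak was farthest from the gene end at LAMA4 (549 bp), COL19A1 (477 bp) and COL4A6 (427 bp). For 6 genes the nearest peak was over 100 kb away. LAMA1 and COL22A1 had none within 500 kb on either side, the nearest lying 1491649 bp and 1323307 bp away, and COL11A1 had 1 in that neighbourhood. Members with a peak at an end had a median of 14.5 peaks within 500 kb on either side and those without had 14, compared with 18 and 12 over all genes. The families differed, with 18 and 14 in collagens but 12 and 17 in laminins, few of which lacked a peak. COL4A5 and COL4A6 were marked with only 1 and 2 such neighbours. The number of copies of each region in H1299 was not examined here, and its part in the presence or absence of a peak was not tested.

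Genes whose products process, fold, export or crosslink collagen had a peak at an end in a larger share than the collagen genes, a difference that was not tested. Of 29 genes of collagen synthesis and crosslinking, a list of enzymes with chaperones, export factors and enhancer proteins, 26 had a peak at an end (89.7%, 72.6 to 97.8), with a median of 6.10-fold, against 59.1% of all genes. The highest were BMP1, the procollagen C-proteinase (10.2-fold, in a peak also at SFTPC), the peroxidase PXDN that crosslinks type IV collagen (9.36-fold), the prolyl hydroxylase subunit P4HA2 (8.88-fold) and its partner P4HB (8.65-fold). SERPINH1, the collagen chaperone, had 8.50-fold. ADAMTS2 and ADAMTS14, which remove the N-propeptide of procollagen, and KLHL12, which takes part in procollagen export, had no listed peak. Other genes of these steps did, with 5.53-fold at an end of ADAMTS3 and 6-fold at an end of MIA3. Basement membrane partners of laminin and type IV collagen had a peak in 9 of 14 cases (64.3%, 35.1 to 87.2), led by agrin (AGRN, 12.3-fold), netrin-4 (NTN4, 7.66-fold), nidogen-1 (NID1, 7.45-fold) and dystroglycan (DAG1, 6.84-fold). FREM1, FREM2, NID2, SMOC1 and SMOC2 had no listed peak. Receptors for collagen and laminin had a peak in 11 of 15 cases (73.3%, 44.9 to 92.2). ITGB1, the shared integrin beta chain, had 8.49-fold, ITGA3, the laminin receptor chain, 7.80-fold, the collagen receptor kinase DDR1 7.30-fold and ITGA6 6.63-fold. DDR2 and ITGA11, receptors of fibrillar collagen, had peaks only in the body, of up to 6.15-fold and 7.41-fold, and GP6 and LAIR1, receptors of platelets and leukocytes, had none.

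Marker genes of cell types were few, and the share of all genes with a peak at an end was 59.1%. VIM, ZEB1, CDH2 and AXL, genes of mesenchymal-like carcinoma cells, all had a peak at an end (4 of 4, 39.8 to 100%), of 7.24-fold to 8.94-fold. Of CDH1, EPCAM, ESRP1 and GRHL2, which mark epithelial cells, none did (0 of 4, 0 to 60.2%), although CDH1 had a body peak of 3.98-fold. The intervals of both lists contain the share of all genes. None of 7 fibroblast and endothelial genes (PDGFRA, PDGFRB, LUM, DCN, PECAM1, CDH5 and TEK) had a peak at an end (0 to 41%), although PDGFRB, PECAM1, CDH5 and TEK had peaks in the body, of up to 9.54-fold at CDH5.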

How the data were processed

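ChIP-seq of H3K18la in H1299 gave 1 antibody and 1 input library. Per the submitters' processing notes, the tools were bcl2fastq 2.17, cutadapt 1.18, Trimmomatic 0.38, Bowtie2 2.3.4.1, Picard, MACS2 (2.1.2 and 2.1.0 are both listed) and ChIPseeker, and the build was hg38. How peaks were called, and at which threshold, is not given in the sources used here. The peak list deposited by the authors, in broad peak layout without header, holds for each peak a fold enrichment (a linear ratio to background), -log10 p, -log10 q and a score. The deposited score repeats -log10 q multiplied by 10 and cut to a whole number, for 99.98% of peaks, and the largest q was 0.0472. In the broad peak layout the fold is an average over the peak's width, which lowers it for wide peaks with a narrow summit.

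Coordinates were made 1-based and compared with the RefSeq gene table and promoter table of GRCh38.p14 in Python 3.11.15 with pandas 2.3.3, and exact intervals came from SciPy 1.17.1. Of 59792 gene entries, 58961 were kept. The others, taken from a break in the sorted order of the table to lie on alternate or unlocalised sequences or outside the nuclear chromosomes, were left out. Exons, introns and untranslated regions were not assigned, since the tables used hold gene limits only. Strands came from the promoter table. Values are given in full for the 10 members of highest fold, the 5 widest peaks, the 5 with most body peaks, the type IV genes and the laminins (1 member is not reported here), and for up to 4 genes and those without a peak of each further matrix list. SERPINH1, ADAMTS3, MIA3 and neighbouring genes were added once their values had been seen. The members and lists were chosen with earlier results of these data known. The overlap code was tested on simulated peaks. Other windows, thresholds and overlap rules were tried. With 1 list there are no tests, and how reads from near-identical sequences were placed was not examined.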

Additional observations from a re-analysis of the deposited data

How the results depend on the processing

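Of 7 alternative settings, those with a window of 500 bp, a window of 3000 bp, the midpoint rule, 50% overlap, or peaks at other genes' ends left out kept the counts within 1.5 times and the median fold within 10%. Members with a peak at an end then numbered 21 to 29 and those with a body peak 28 to 30. With peaks of at least the median fold of all peaks, 15 members had a peak at an end and 14 in the body, the median fold at an end was 6.44, and 1 type IV pair had a peak at the shared start, since that setting removes weak peaks. Keeping only peaks whose -log10 q reached 5, the median fold was 5.71 and again 1 type IV pair, COL4A5 and COL4A6, counted, while 17 members kept a peak at an end. Laminins were the more dependent group, with 5 of 12 under either stricter setting, against 12 and 10 of 44 collagens, and 52.4% and 45% of all genes. LAMA4 was not counted with a window of 500 bp. COL1A1, COL7A1 and LAMB3 were not counted under the midpoint rule, COL1A1 not under 50% overlap, and COL5A2 and COL7A1 not without peaks shared with other genes. The setting added after seeing the data, genes of at least 50 kb only, gave 17, 24 and 14 members with a peak at an end, in the body and at the start. The unknown depth limits every statement that no peak is listed.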
